A study of Homo sapiens with 9 samples.

Results

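The Arp2/3 complex nucleates actin filaments as branches on the sides of existing filaments and builds the branched network of the lamellipodium, the sheet-like edge that a migrating cell pushes forward. Its actin-related subunits ARP2 and ARP3 stand in for the first actins of the daughter filament, ARPC2 and ARPC4 form the core that grips the mother filament, and the remaining subunits hold this assembly together and bind its activators. Some positions of the complex can be filled by either of 2 gene products, ARPC1A or ARPC1B and ARPC5 or ARPC5L. The transcripts described here are those of the 9 genes that encode its subunits, ACTR2, ACTR3, ARPC1A, ARPC1B, ARPC2, ARPC3, ARPC4, ARPC5 and ARPC5L, chosen by gene symbol from the 60664 genes counted in each sample. All 9 passed the filter on low counts, which kept 18264 genes.

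RNA was sequenced from MDA-MB-231 cells, a human line of triple-negative breast cancer with mesenchymal features, after 6 days in medium of water-like viscosity (0.77 cP) or in medium thickened with methylcellulose to 8 cP. Cells carrying a scramble control hairpin (SC) were grown at 0.77 cP and at 8 cP, and cells carrying a hairpin against the ion channel TRPV4 (shTRPV4) were grown at 8 cP, with 3 samples in each of the 3 groups. Both kinds of cell had been transduced with lentivirus of the pLKO.1 puro backbone and kept under puromycin, so selection and the vector were common to all 9 samples. The knockdown rests on 1 hairpin, and shTRPV4 cells at 0.77 cP were not analysed here, so that an effect of the hairpin at 8 cP cannot be told apart from a difference between the lines that exists at any viscosity. The first comparison asked what elevated viscosity does to SC cells, the second whether the cells with less TRPV4 differ at the same viscosity, and the third set shTRPV4 cells against SC cells at baseline. Each group serves in 2 of the 3 comparisons, which are therefore not independent of each other. Neither the labels nor the methods say whether samples of a group were separate cultures, so the p-values measure the spread between these samples, which may be technical.

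Library totals ran from 64571681 to 103518036 read counts. TRPV4 had 28 to 54 counts in SC cells at 0.77 cP, 24 to 64 in SC cells at 8 cP and 1 to 13 in shTRPV4 cells, a log2 difference of -2.51 between shTRPV4 and SC cells at 8 cP (edgeR adjusted p = 0.00219). The line's mesenchymal markers VIM, CD44, AXL and MSN had between 42932 and 138993 counts in every sample, and ESR1, PGR, CDH1 and KRT20 had at most 12. EPCAM, which had been listed among the genes near 0 in this line, had 1205 to 1967 counts. Of 6 markers of other cell types, PTPRC, CD3E, CD68 and ALB had 0 to 17 counts per sample. CD68 shares 94.9% of the bases of its canonical transcript with another annotated gene on the same strand, so its counts may understate its level. PECAM1 and COL1A1 had 181 to 650 counts, and both fell in SC cells at 8 cP against 0.77 cP (log2 fold change -0.86 and -0.35, edgeR adjusted p = 0.00159 and 0.0117). The summed level of these 6 markers was 10.3 to 12.6 CPM (read counts relative to the library total, scaled with TMM) in SC cells at 0.77 cP, 7.66 to 8.23 in SC cells at 8 cP and 6.81 to 6.93 in shTRPV4 cells, and its part in the subunit values was not tested. For scale, an adjusted p below 0.05 was reached by 19.3% of all genes tested between the viscosities in SC cells, by 20.0% between shTRPV4 and SC cells at 8 cP (1647 higher and 2002 lower) and by 42.4% between the shTRPV4 samples and baseline SC samples. With library totals in place of TMM as the scaling, the split of the second comparison turned to 2082 higher and 1627 lower, a shift of the median of all genes from 0.00 to 0.03 on the log2 scale. The first percentage rests on particular libraries, since the number of genes called fell from 3518 to 1409 without SC 0.77 cP replicate 1, to 1927 without SC 0.77 cP replicate 2 and to 1418 without SC 8 cP replicate 3. In the second comparison the number fell from 3649 to 2361 without SC 8 cP replicate 1 and to 2179 without SC 8 cP replicate 2.

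The sequences just upstream of 4 subunit genes are shown because these genes carry the results below: ACTR2 and ARPC5L were higher at 8 cP in SC cells, ARPC2 was lower in shTRPV4 cells, and ARPC5 is the partner of ARPC5L. They are RefSeq promoter windows of build GRCh38.p14, written 5′ to 3′ on the strand of the gene and ending before its first annotated exon, and the capitals mark every match to the core motif of ETS factors (CGGAAG) or to the CCAAT box (CCAAT) on either strand inside the stretch shown. ACTR2 lies on the plus strand (chr2:65227581-65227787), as do ARPC5L (chr9:124861880-124862129) and ARPC2 (chr2:218216939-218217140, the first of 2 windows), and ARPC5 lies on the minus strand (chr1:183635784-183636033).
ACTR2: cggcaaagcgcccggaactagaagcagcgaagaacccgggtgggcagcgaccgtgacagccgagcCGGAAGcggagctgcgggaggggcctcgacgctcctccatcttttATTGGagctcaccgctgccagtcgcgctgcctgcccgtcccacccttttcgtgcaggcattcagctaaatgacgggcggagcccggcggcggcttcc
ARPC5L: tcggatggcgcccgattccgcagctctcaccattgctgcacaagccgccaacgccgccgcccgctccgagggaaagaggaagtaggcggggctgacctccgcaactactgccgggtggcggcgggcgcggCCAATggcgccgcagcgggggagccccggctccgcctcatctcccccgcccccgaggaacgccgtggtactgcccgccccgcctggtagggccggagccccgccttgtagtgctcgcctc
ARPC5: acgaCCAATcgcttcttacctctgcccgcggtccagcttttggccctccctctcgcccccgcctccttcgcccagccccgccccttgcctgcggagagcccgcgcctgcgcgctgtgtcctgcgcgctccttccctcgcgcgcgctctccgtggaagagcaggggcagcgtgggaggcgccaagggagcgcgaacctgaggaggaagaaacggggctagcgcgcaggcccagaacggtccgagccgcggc
ARPC2: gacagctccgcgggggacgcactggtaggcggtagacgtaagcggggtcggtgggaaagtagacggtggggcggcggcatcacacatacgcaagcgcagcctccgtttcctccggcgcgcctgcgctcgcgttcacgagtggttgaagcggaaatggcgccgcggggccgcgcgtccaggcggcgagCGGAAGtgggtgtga

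The full RefSeq windows ran from 250 bases before to 50 bases after each annotated start. They were found for 8 of the 9 subunit genes, of which ACTR3 and ARPC2 had more than 1 start. ARPC1B had no entry. The 8 genes had 11 windows. The ACTR3 windows at chr2:113889684-113889983 and chr2:113889839-113890138 overlap. A match in the bases they share counts in both windows, as it does for the ETS core, NRF1 and YY1 below. The ETS core was found in 7 of these 11 windows, from 6 genes, and in 19.5% of all 35116 windows. ARPC3, whose product joins the complex beside ARP3, held 4 matches, and ARPC4 and ARPC5L held none. The CCAAT box was found in 4 of the 11 windows, close to its share of 34.6% of all windows, and both genes of the ARPC5 pair were among the 4. The motif of NRF1 (GCGCATGC) was found in 3 of the 11 windows, from ACTR3 and ARPC1A, beside 3.05% of all windows, and that of YY1 (AAGATGG) in 4 of the 11, from ACTR2 and ACTR3, beside 5.84%. The TEAD core (GGAATG), present in 14% of all windows, and the CArG box of serum response factor, present in 1.29%, were in no subunit window. These are matches of letters on both strands, with no measurement of binding in these samples.

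Per kilobase of annotated exon, the subunit transcripts of SC cells at 0.77 cP ran over a wide range of levels. ACTR2, which encodes ARP2, stood first at 83.7 ± 3.25 CPM per kb (SD, n = 3). ARPC3 followed with 63.6 ± 1.93 and ARPC2 with 58.2 ± 0.748. ACTR3, which encodes ARP3, had 37.2 ± 0.99 CPM per kb. The next in order, ARPC5 (31.9 ± 1.25) and ARPC4 (31.9 ± 1.31), overlapped between samples and were the only neighbours in the order that did. ARPC5L had 25.7 ± 1.29, ARPC1A 13.3 ± 0.56 and ARPC1B 0.603 ± 0.0463 CPM per kb. The order depends on the length used, because the annotated exons of ACTR3 span 11946 bases and those of ARPC5 10650 bases, against coding lengths of 1254 and 474 bases. Per kilobase of coding sequence ARPC5 stood first (717.7 CPM per kb) and ACTR2 lay below ACTR3 (274.3 against 354.6), and per kilobase of the canonical transcript ARPC2 stood first (269.1). ARPC1B was the lowest under each of the 4 lengths tried, whereas ARPC1A moved from the next lowest to about the level of ARPC5 where bases shared with another gene on the same strand were left out. Summed without regard to length, the 9 transcripts had 1902 ± 45.4 CPM in SC cells at 0.77 cP, 2025 ± 26.4 in SC cells at 8 cP and 1896 ± 40.5 in shTRPV4 cells at 8 cP.

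The low value of ARPC1B, the WD-repeat subunit that alternates with ARPC1A in the complex, has to be read with its annotation. ARPC1A (chr7:99325898-99366262) and ARPC1B (chr7:99374249-99394816) lie one after the other on the plus strand, and a readthrough gene model that joins them (ENSG00000284292) covers 76.5% of the canonical ARPC1A transcript and 85.5% of that of ARPC1B. The shares of their coding bases are 96.8% and 99.6%. A read that falls entirely on bases of more than 1 gene is left unassigned in the usual modes of HTSeq, the counter used, although the mode and the strand option are not given in the sources used here, and the readthrough gene itself had 0 to 11 counts per sample. Of the exon bases of ARPC1B, 244 lie opposite PDAP1, a gene with 17572 to 30045 counts. ARPC1B had 226 to 328 counts and ARPC1A 1732 to 2963. Per kilobase of exon not shared on the same strand, ARPC1A had 32.2 ± 1.35 and ARPC1B 0.785 ± 0.0603 CPM in SC cells at 0.77 cP. These unshared exons span 855 bases in ARPC1A and 4289 in ARPC1B, of which 372 and 219 lie in the canonical transcript. The value of ARPC1B is thus spread over bases that are mostly outside its canonical transcript, and may understate its level. ARPC4 is in a like position, since 99.4% of its coding bases are shared with the readthrough gene ARPC4-TTLL3, which had 0 or 1 count per sample. ARPC3 shares 18.2% of its coding bases with another gene model, and the 5 other subunit genes share none on the same strand. Whether the counts of ARPC1A, ARPC1B and ARPC4 came from their unshared bases alone was not tested. The comparison of a gene with itself between groups uses the same annotated bases. Whether the groups differed in their use of those bases, or in readthrough, was not tested.

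**Figure D1:**
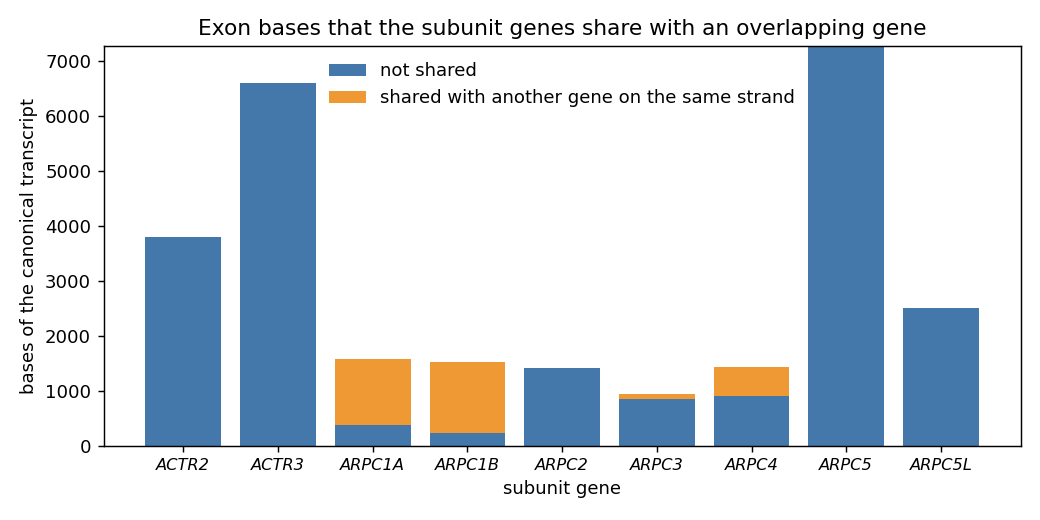
Bases of the canonical transcript of each subunit gene (y axis, bases), split into those not shared (blue) and those shared with another annotated gene on the same strand (orange). The shared part makes up 76.5% of ARPC1A, 85.5% of ARPC1B, 37.8% of ARPC4 and 10.3% of ARPC3, and is 0 in the other 5 genes.

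In SC cells, 2 of the 9 subunit transcripts were higher at 8 cP than at 0.77 cP and none was lower, where 19.3% of all genes passed the same test in either direction. The 2 were ACTR2 and ARPC5L. The median log2 fold change of the 9 was 0.05, beside -0.01 for all genes tested, and the median size of change was 0.08 against 0.15. In bulk RNA a smaller share of cells with a transcript and less of it per cell cannot be told apart. ACTR2 (chr2:65227788-65271253, plus strand) measured 323, 343 and 349 CPM in the 3 samples at 0.77 cP, 399.9, 393 and 412 CPM in the 3 SC samples at 8 cP, and 403, 379 and 367 CPM in the 3 shTRPV4 samples. Every sample at 8 cP, of either line, lay above every sample at 0.77 cP. The rise in SC cells was 0.25 on the log2 scale (SE 0.047, edgeR adjusted p = 0.00312), or 18.7%. It kept an adjusted p below 0.05 when any of the 9 libraries was left out (at most 0.0206).

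ACTR3, whose product pairs with ARP2 in the complex, measured 436, 458 and 439.8 CPM in SC cells at 0.77 cP, 448, 461 and 458 at 8 cP, and 407, 444 and 451 in shTRPV4 cells. The groups overlapped, and the difference between the viscosities in SC cells was 0.04 (95% interval -0.06 to 0.13, edgeR adjusted p = 0.643). The ratio of ACTR2 to ACTR3 counts within a sample, which no library scaling affects and which was chosen for description after the values had been seen, was 0.742, 0.748 and 0.793 at 0.77 cP and 0.893, 0.851 and 0.899 in SC cells at 8 cP. In shTRPV4 cells it was 0.99 (replicate 1), 0.854 and 0.813. The samples at 8 cP were all above those at 0.77 cP, and shTRPV4 replicate 1 was the highest of the 9.

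ARPC5L (chr9:124862130-124877733, plus strand), the alternative to ARPC5 at the position that tethers ARP2 to the rest of the complex, measured 89.5, 91.1 and 98.3 CPM at 0.77 cP and 103.8, 104.6 and 105.9 CPM in SC cells at 8 cP. The shTRPV4 samples had 110.5, 101.4 and 106.9 CPM. Samples at 8 cP were again all above those at 0.77 cP. The rise in SC cells was 0.17 (SE 0.048, edgeR adjusted p = 0.0207), or 12.7%, and it did not pass the threshold without SC 0.77 cP replicate 1 (adjusted p = 0.0893), SC 0.77 cP replicate 2 (0.0711) or SC 8 cP replicate 3 (0.0722). ARPC5 measured 327, 354 and 339.7 CPM at 0.77 cP and 358, 367 and 353 CPM in SC cells at 8 cP. These overlapped, with a difference of 0.08 (95% interval -0.02 to 0.17, edgeR adjusted p = 0.247).

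The other 5 subunits did not pass the test between the viscosities in SC cells. ARPC2 and ARPC4, the core that binds the mother filament, differed by 0.05 and 0.02 on the log2 scale, and ARPC3 by 0.01. ARPC1A differed by 0.09 and ARPC1B, the member with the fewest counts, by -0.13 with the widest 95% interval of the 9 (-0.38 to 0.11). The intervals of the other 4 reached no further than -0.09 on the lower side and 0.21 on the upper. For ARPC4 and ARPC3 they ended at 0.12 and 0.11. The rise of 0.25 fitted for ACTR2 lay above the intervals of all 5. Its own 95% interval (0.15 to 0.35) overlapped those of ARPC1A and ARPC2. ARPC4 measured 81.7, 80.8 and 87.1 CPM at 0.77 cP, 82.9, 84.5 and 86.5 in SC cells at 8 cP, and 85.2, 84.3 and 87.2 in shTRPV4 cells. ARPC1B measured 3.44, 3.58 and 3.08 CPM at 0.77 cP, 3.32, 2.98 and 2.88 in SC cells at 8 cP, and 2.92, 2.89 and 3.49 in shTRPV4 cells. The 3 groups overlapped in both transcripts.

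**Figure D2:**
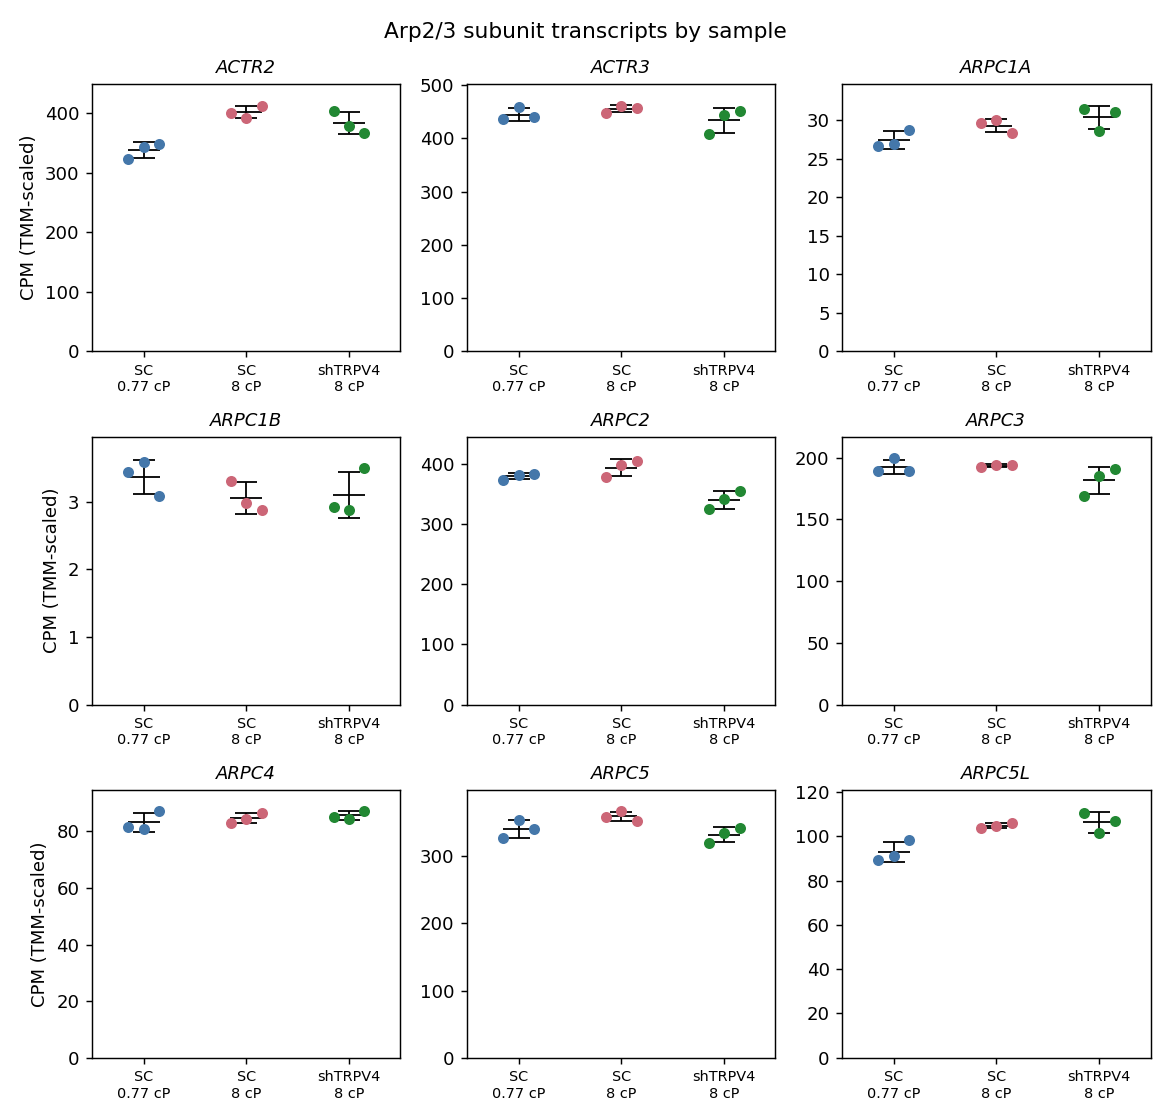
Levels of the 9 subunit transcripts in CPM scaled with TMM (y axis from 0, a separate range in each panel) in SC cells at 0.77 cP (blue), SC cells at 8 cP (red) and shTRPV4 cells at 8 cP (green). Points are samples and bars are the mean and SD of 3. ACTR2 and ARPC5L samples at 8 cP all lie above those at 0.77 cP, and ARPC2 samples of shTRPV4 cells (324 to 354) all lie below those of SC cells (374 to 405).

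At 8 cP, 1 of the 9 subunit transcripts passed the test between shTRPV4 and SC cells, where 20.0% of all genes did. That was ARPC2 (chr2:218217141-218254356, plus strand), whose product, with ARPC4, grips the mother filament. It measured 378, 399 and 405 CPM in SC cells at 8 cP and 324, 341 and 354 CPM in shTRPV4 cells. SC cells at 0.77 cP had 374, 382 and 382 CPM, which overlapped SC cells at 8 cP, and every SC sample of either viscosity lay above every shTRPV4 sample. The fall at 8 cP was -0.21 on the log2 scale (SE 0.045, edgeR adjusted p = 0.00404), or -13.7%. It held with any 1 of the 9 libraries left out, at an adjusted p of at most 0.0264.

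The members that had been higher at 8 cP in SC cells did not pass the test between the lines. ACTR2 differed by -0.07 (95% interval -0.17 to 0.03, edgeR adjusted p = 0.357) and ARPC5L by 0.02 (-0.08 to 0.12, adjusted p = 0.809). ARPC5 had 319.5, 335 and 342 CPM in shTRPV4 cells, all below the SC samples at 8 cP, with a difference of -0.11 (95% interval -0.21 to -0.02) that missed the threshold after adjustment over all genes (edgeR adjusted p = 0.0926, unadjusted p = 0.0239). ARPC3 had 169, 186 and 190.5 CPM in shTRPV4 cells and 192, 194 and 195 in SC cells at 8 cP, also without overlap, with a difference of -0.09 (adjusted p = 0.202). In both transcripts shTRPV4 replicate 1 was the lowest of the 9 samples, as it was in ACTR3 (-0.07, adjusted p = 0.331). ARPC1A, ARPC1B and ARPC4 differed by 0.05, 0.02 and 0.02. The median over the 9 was -0.07, beside 0.00 for all genes tested.

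Between the shTRPV4 samples and the SC samples at 0.77 cP, 4 of the 9 transcripts passed the test, where 42.4% of all genes did. ACTR2 was higher by 0.18 (SE 0.047, edgeR adjusted p = 0.00638), ARPC5L by 0.19 (SE 0.048, adjusted p = 0.0041) and ARPC1A by 0.15 (SE 0.055, adjusted p = 0.0443), and ARPC2 was lower by 0.16 on the log2 scale (log2 fold change -0.16, SE 0.046, adjusted p = 0.0109). ARPC1A measured 26.7, 27 and 28.8 CPM in SC cells at 0.77 cP, 29.6, 30 and 28.3 in SC cells at 8 cP, and 31.4, 28.7 and 31.1 in shTRPV4 cells, so that its groups overlapped. Its call was lost in 4 of the 9 fits without a library, namely SC 0.77 cP replicates 1 and 2 and shTRPV4 replicates 1 and 3 (adjusted p between 0.105 and 0.132). It was also lost with upper-quartile scaling (0.0659), with no filter (0.0852), with the 6 samples of the comparison alone (0.0601) and with the replicate number as a block (0.0541). The call of ARPC2 moved to an adjusted p of 0.0501 without SC 0.77 cP replicate 2, whereas ACTR2 and ARPC5L kept theirs in all 9 fits. This contrast sums the other 2 and changes viscosity and line together.

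**Figure D3:**
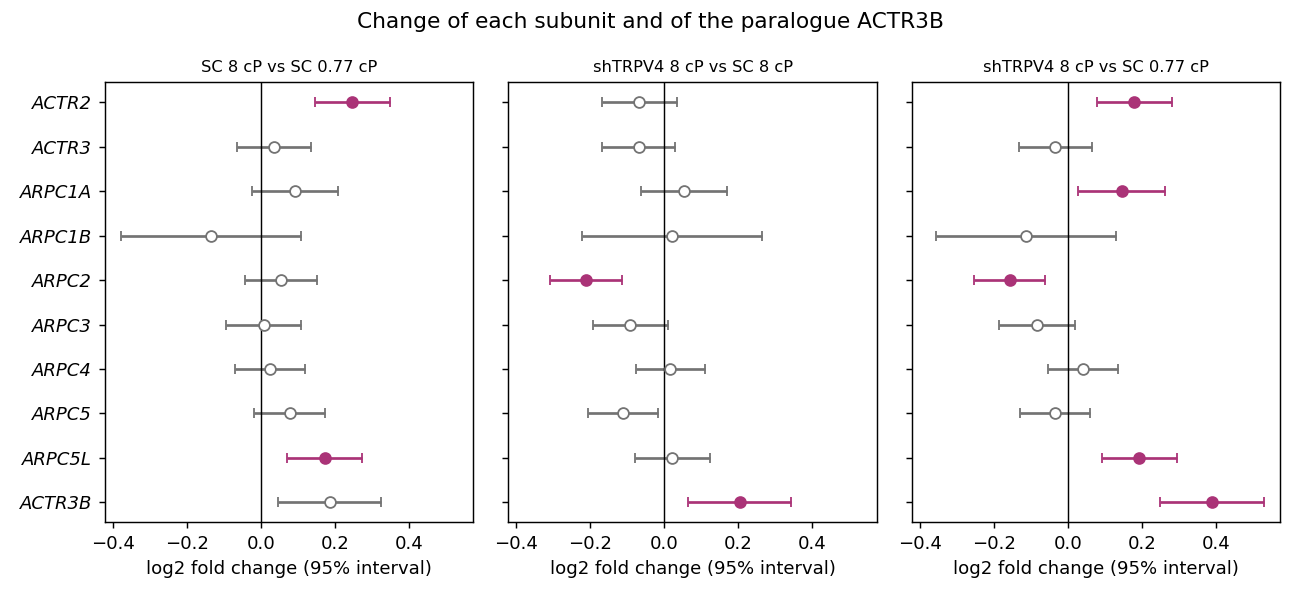
Log2 fold change (x axis) of the 9 subunits and of the paralogue ACTR3B in the 3 comparisons, with 95% intervals. Filled purple symbols have an edgeR adjusted p below 0.05: ACTR2 and ARPC5L in the first panel, ARPC2 and ACTR3B in the second, and ACTR2, ARPC1A, ARPC2, ARPC5L and ACTR3B in the third.

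Outside the 9, the genome holds ACTR3B and ACTR3C, paralogues of ACTR3. ACTR3B (chr7:152759749-152855378) encodes a protein closely related to ARP3 and had 691 to 1305 counts, or 1.74 CPM per kb of exon in SC cells at 0.77 cP beside 37.2 for ACTR3. It measured 10.7, 10.8 and 10 CPM in SC cells at 0.77 cP, 11.8, 12.3 and 11.7 in SC cells at 8 cP, and 14.2, 13.1 and 13.8 in shTRPV4 cells, and no 2 groups overlapped. Between the viscosities the difference was 0.19 (95% interval 0.05 to 0.33, edgeR adjusted p = 0.0596), which passed the threshold in DESeq2 (adjusted p = 0.0318) and without shTRPV4 replicate 1 (0.0491). Between the lines at 8 cP ACTR3B was higher by 0.20 (SE 0.065, edgeR adjusted p = 0.0386), a call that was lost with no filter on low counts (0.0859) and without any 1 of the 6 libraries at 8 cP (0.0534 to 0.118). Against SC cells at 0.77 cP it was higher by 0.39 in shTRPV4 cells (SE 0.066, edgeR adjusted p = 0.000219), in each of the 9 fits without a library. ACTR3C had 118 to 174 counts, in part opposite 2 other genes, and did not pass the test in any comparison.

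The pairs of related genes were compared through the ratio of their counts within each sample. In coding sequence the members of a pair were identical at 70.8% (ARPC1A and ARPC1B), 71.3% (ARPC5 and ARPC5L) and 76.8% (ACTR3 and ACTR3B) of aligned bases, and the longest identical runs of coding bases are printed here in full because they set how far a read could be mistaken for its partner. They cover bases 142 to 158 of both ARPC1A and ARPC1B, bases 57 to 68 of ARPC5 (54 to 65 of ARPC5L) and bases 25 to 41 of both ACTR3 and ACTR3B, counted from the A of the start codon.
ARPC1A and ARPC1B: ctcaaggagcacaacgg
ARPC5 and ARPC5L: tgacgagaacaa
ACTR3 and ACTR3B: gtggtggactgtggcac
With at most 17 bases in coding sequence and at most 24 in the whole transcript, these runs are shorter than the sequenced reads.

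Relative to ARPC5, ARPC5L counts were highest in shTRPV4 cells. The ratio of ARPC5L to ARPC5 counts was 0.274, 0.257 and 0.289 in SC cells at 0.77 cP, 0.29, 0.286 and 0.3 in SC cells at 8 cP, and 0.346, 0.303 and 0.313 in shTRPV4 cells. The first 2 groups overlapped (log2 difference 0.10 ± 0.053 (SE), exact permutation p = 0.2). All 3 shTRPV4 samples lay above both SC groups, with log2 differences of 0.13 ± 0.061 and 0.23 ± 0.075 (exact two-sided permutation p = 0.1 for each, the smallest that 3 against 3 samples can give).

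ACTR3B relative to ACTR3 was the pair whose 3 groups stood apart in each comparison. The ratio was 0.0246, 0.0235 and 0.0228 in SC cells at 0.77 cP, 0.0264, 0.0267 and 0.0255 in SC cells at 8 cP, and 0.035, 0.0296 and 0.0306 in shTRPV4 cells. No 2 groups overlapped, and the log2 differences were 0.15 ± 0.038 with viscosity, 0.27 ± 0.076 between the lines at 8 cP and 0.42 ± 0.08 between the shTRPV4 samples and baseline (exact permutation p = 0.1 for each). The ratio of ARPC1B to ARPC1A was 0.129, 0.133 and 0.107 in SC cells at 0.77 cP, 0.112, 0.0994 and 0.101 in SC cells at 8 cP, and 0.0931, 0.101 and 0.112 in shTRPV4 cells. These groups overlapped in all 3 comparisons (exact permutation p = 0.2, 0.8 and 0.2). Because most coding bases of both genes are shared with a readthrough model, the size of this ratio may not give their relative levels. Adjusted over the 9 tests of ratios, the p-values ran from 0.18 to 0.8, and no ratio could have passed 0.05 in this design.

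**Figure D4:**
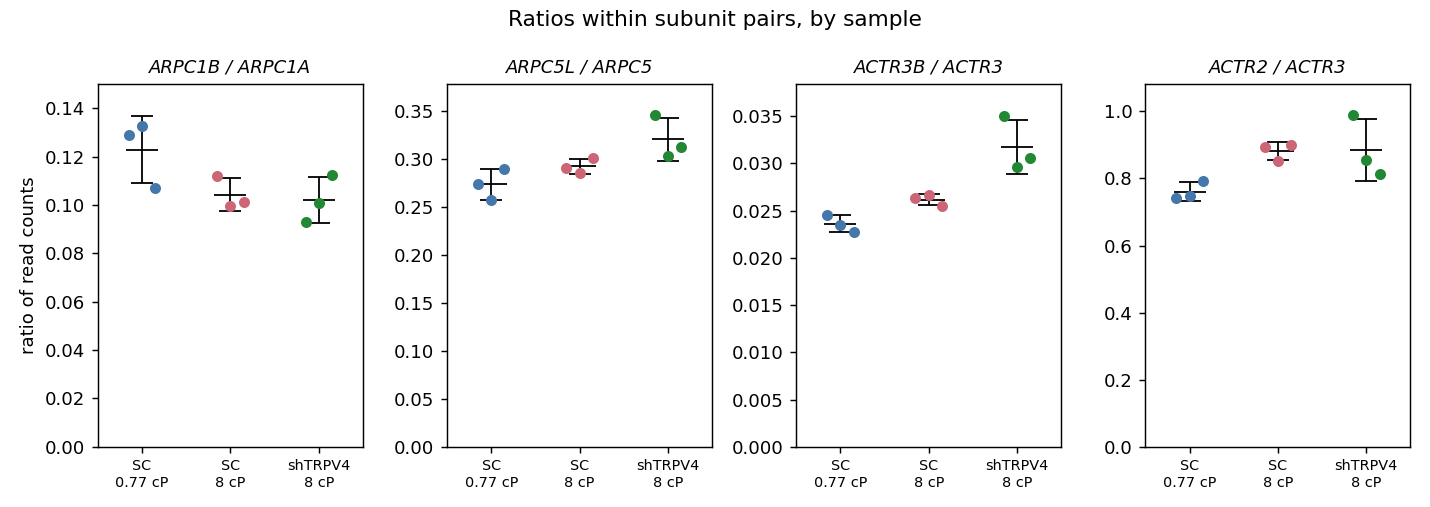
Ratio of read counts within a sample (y axis from 0, no unit) for ARPC1B to ARPC1A, ARPC5L to ARPC5, ACTR3B to ACTR3 and ACTR2 to ACTR3, in SC cells at 0.77 cP (blue), SC cells at 8 cP (red) and shTRPV4 cells at 8 cP (green). Points are samples and bars are the mean and SD of 3. The ACTR3B to ACTR3 ratio of shTRPV4 samples (0.0296 to 0.035) lies above all SC samples (0.0228 to 0.0267), and the ARPC1B to ARPC1A groups overlap.

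Across the 9 samples the subunit transcripts did not move as 1 block. Over the 36 pairs, Pearson's r of log2 CPM ran from -0.66 (ACTR2 with ARPC1B) to 0.94 (ACTR3 with ARPC3). ACTR3 also went with ARPC5 (0.87), and ARPC5L went with ARPC1A (0.90) and ACTR2 (0.88), whereas ARPC1A and ARPC3 went opposite ways (-0.55). These values describe 9 points that share their libraries and fall into 3 groups, and they are given with no test. The mean of the 9 centred log2 levels was -0.06 to -0.01 in SC cells at 0.77 cP, 0.04 in each SC sample at 8 cP, and -0.04, -0.03 and 0.03 in shTRPV4 cells. Of 12906 other genes with at least 100 counts on average, those most like this mean over the 9 samples were SPTSSA (r = 0.93), a subunit of serine palmitoyltransferase, TSR2 (0.92), which acts in ribosome assembly, TMEM9B (0.92), DTD1 (0.91), a D-aminoacyl-tRNA deacylase, and YWHAQ (0.91), a 14-3-3 protein. None of these 5 passed the edgeR test in any comparison (adjusted p between 0.0654 and 0.854). They are the highest of 12906 correlations over 9 samples, given with no test, and genes without any link to the subunits may reach such values.

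Around the complex stand its activators, inhibitors and the rest of the actin machinery, taken here as 81 genes in 9 lists, 78 of which were tested. Between the viscosities in SC cells, 9 were higher and 7 lower, against the 19.3% of all genes called. That count fell from 16 to 4 without SC 0.77 cP replicate 1, to 6 without replicate 2 of that group and to 4 without SC 8 cP replicate 3. Among activators of the WASP and WAVE families 1 of 11 changed, JMY, which fell (-0.27, edgeR adjusted p = 0.0112). In the WAVE regulatory complex, which relays Rac to Arp2/3, NCKAP1 was the 1 of 6 tested to change (0.15, adjusted p = 0.0157), and in the WASH complex, which acts on endosomes, 0 of 5 passed in edgeR or DESeq2 and 1 of 5 had an unadjusted p below 0.05. Of the factors that stabilize branches, ABL2, a kinase that binds cortactin, fell (-0.36, SE 0.051, adjusted p = 0.000368) and CTTN and HCLS1 did not pass.

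Of 11 inhibitors and debranching factors, 2 rose in SC cells at 8 cP and none fell. They were ARPIN, an inhibitor of Arp2/3 at the lamellipodium (0.22, SE 0.05, edgeR adjusted p = 0.00699), and CORO1C, a coronin (0.20, adjusted p = 0.0139). ARPIN shares 719 exon bases with the readthrough gene ARPIN-AP3S2. Of 14 formins and Ena/VASP proteins, which promote unbranched filaments, 2 were higher and 1 was lower, and the 2 were DIAPH3 (0.28, adjusted p = 0.00621) and FMNL2 (0.16, adjusted p = 0.0336). In actin and its turnover 4 rose and 2 fell of 17. First by adjusted p were the cofilin phosphatase SSH3 (-0.28, adjusted p = 0.00479) and the monomer-binding TWF2 (-0.18, adjusted p = 0.0196). The median log2 fold change of the 17 was 0.10, and DESeq2 called 10 of them. TWF2 shares 463 exon bases with another annotated gene on the same strand. Of 6 capping genes CAPZA2 fell (-0.18, adjusted p = 0.0469). ABL2, ARPIN, DIAPH3 and SSH3 kept an adjusted p below 0.05 in each of the 9 fits without a library, at most 0.0419. The other genes named here all lost it without SC 0.77 cP replicate 1 and without SC 8 cP replicate 3. Their highest adjusted p with a library left out was 0.0669 for JMY, 0.068 for NCKAP1, 0.0753 for CORO1C, 0.143 for TWF2, 0.151 for FMNL2 and 0.207 for CAPZA2.

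Between shTRPV4 and SC cells at 8 cP, 5 of the 78 were higher and 19 lower, beside 20.0% of all genes called. The lower group held the activator WASF2, or WAVE2 (-0.24, SE 0.044, edgeR adjusted p = 0.0011), and WIPF2, a partner of N-WASP (-0.21, adjusted p = 0.00408), as 2 of the 3 that fell among 11. Of the WAVE regulatory complex 0 of 6 passed in edgeR or DESeq2 and 1 of 6 had an unadjusted p below 0.05. Of the WASH complex WASHC3 (-0.20, adjusted p = 0.0205) and WASHC4 (-0.15, adjusted p = 0.0327) fell. HCLS1, a relative of cortactin, had 1058, 1166 and 1081 counts in SC cells at 8 cP and 522, 503 and 449 in shTRPV4 cells, a change of -1.02 (SE 0.092, adjusted p = 2.13e-06). ABL2 fell as well (-0.23, adjusted p = 0.00501).

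GMFG, a debranching factor, had 40, 48 and 33 counts in SC cells at 8 cP and 20, 11 and 17 in shTRPV4 cells (-1.20, SE 0.296, edgeR adjusted p = 0.0103), and CORO2B fell by 0.51 on the log2 scale (SE 0.086, adjusted p = 0.000688). CDC42 (-0.23, adjusted p = 0.00464) and RAC2 (-0.17, adjusted p = 0.0115) fell among 5 GTPases. Of the formins and Ena/VASP proteins 4 were higher and 2 lower, led by DAAM1 (0.35, adjusted p = 0.000568) and FMNL2 (0.30, adjusted p = 0.000575). CAP1, which recycles actin monomers, fell (-0.29, adjusted p = 0.000212), as did WDR1, a cofilin partner (-0.15, adjusted p = 0.017), among 4 lower of 17. Of the capping genes CAPZB, a subunit of capping protein, fell (-0.32, adjusted p = 5.88e-05), and CARMIL1, which pulls capping protein off filament ends, rose (0.41, adjusted p = 0.00016). Of the 16 named genes 5 lost their calls when a library was left out. GMFG did so without SC 8 cP replicate 2 (adjusted p = 0.0506) and RAC2 without SC 8 cP replicate 1 (0.0759). WASHC3 did so without SC 8 cP replicate 2 or shTRPV4 replicate 1 (up to 0.0964), WDR1 without any SC 8 cP replicate or shTRPV4 replicate 2 (up to 0.0693), and WASHC4 without any 1 of the 6 libraries at 8 cP (up to 0.123). The call of WASHC4 was also lost with library totals as the scaling (adjusted p = 0.0739).

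Between the shTRPV4 samples and the SC samples at 0.77 cP, 16 were higher and 23 lower of the 78. Of all genes, 42.4% were called (3732 higher and 4020 lower). As this contrast sums the other 2, its calls are no separate observation. The calls among the activators were all falls, 4 of 11, with JMY (-0.43, edgeR adjusted p = 9.22e-05) and WIPF2 (-0.30, adjusted p = 9.72e-05) first. ABI1 fell (-0.17, adjusted p = 0.00351) and NCKAP1 rose (0.15, adjusted p = 0.00518) in the WAVE regulatory complex. ABL2 fell by 0.59 on the log2 scale (adjusted p = 4.11e-07) and HCLS1 by 0.93 (adjusted p = 1.69e-06). ARPIN was higher (0.26, adjusted p = 0.000554) and GMFG lower (-1.78, adjusted p = 0.000151). RAC2 (-0.30, adjusted p = 5.55e-05) and CDC42 (-0.26, adjusted p = 0.000658) fell. FMNL2 (0.47, adjusted p = 3.74e-06) and FHOD3 (0.33, adjusted p = 2.82e-05) rose. CAP1 (-0.29, adjusted p = 6.25e-05) and TWF2 (-0.33, adjusted p = 7.46e-05) fell. CARMIL1 (0.43, adjusted p = 2.95e-05) and CAPZB (-0.30, adjusted p = 2.99e-05) went opposite ways. In the WASH complex WASHC3 fell (-0.33, adjusted p = 0.000274) and WASHC5 rose (0.19, adjusted p = 0.0281), the latter with overlapping groups and with its call lost without SC 0.77 cP replicate 1 or 2 or shTRPV4 replicate 1 or 2 (adjusted p up to 0.127). FHOD3 shares 741 exon bases with TPGS2 on the opposite strand.

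**Figure D5:**
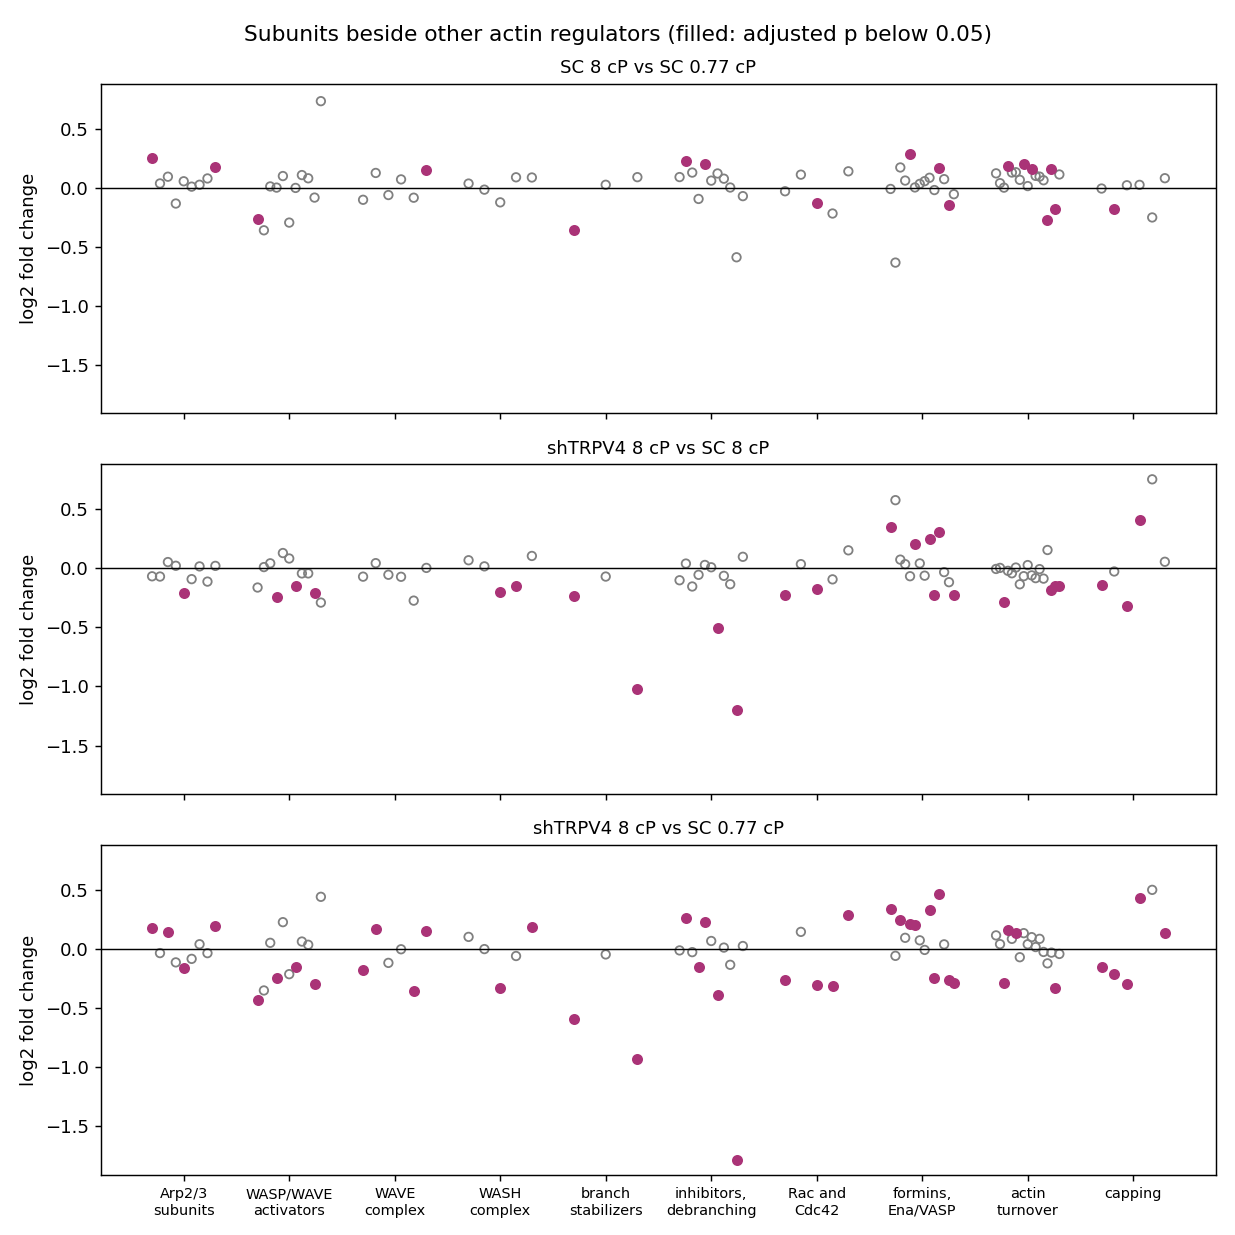
Log2 fold change (y axis) of each tested gene of the 9 subunits and of 9 lists of other actin regulators, in the 3 comparisons (panels). Filled purple points have an edgeR adjusted p below 0.05 and open grey points do not. The subunits lie between -0.21 and 0.25 in every panel, and HCLS1 (-1.02) and GMFG (-1.20) are the lowest points of the middle panel.

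Over the 3 comparisons, the log2 fold changes of the 9 subunits ran from -0.13 to 0.25 between the viscosities, from -0.21 to 0.05 between the lines at 8 cP and from -0.16 to 0.19 between the shTRPV4 samples and baseline. The median size of change was 0.08, 0.07 and 0.11 for the 9 subunits, 0.09, 0.10 and 0.15 for the 78 regulators, and 0.15, 0.15 and 0.23 for all genes tested.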

How the data were processed

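Poly(A) RNA of 9 MDA-MB-231 samples was sequenced from strand-marked libraries. The authors aligned the reads to GRCh38.p13 with HISAT2 2.2.1, counted reads per gene of the Ensembl annotation with HTSeq 0.13.5 and deposited raw counts for each sample, without normalization or pooling. The strand option and the overlap mode of the counting are not given in the sources used here. Symbols were matched for 60463 of 60664 gene identifiers. Groups and replicate numbers were taken from the sample titles. No 2 samples of a group agreed within sampling noise (chi-square per degree of freedom 6.27 to 28.9).

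Counts were tested with edgeR 4.0.16 in R 4.3.3 (quasi-likelihood F test, TMM scaling, filterByExpr, 1 coefficient per group, all 9 samples, Benjamini-Hochberg adjustment over 18264 genes, threshold 0.05). The common biological coefficient of variation was 0.0633. In simulated counts for the comparison between the viscosities, 17990 genes were tested and 100 had been changed by 0.25 on the log2 scale. The same steps called 50% of those and 84% of the genes changed by 0.5. A smaller share of genes was changed there than the 19.3% called in the data, so these percentages are not the sensitivity for the subunits. Ratios of gene pairs were compared with an exact two-sided permutation test over 9 tests. Gene positions, exon lengths and overlaps came from GENCODE release 44, which is not the release used for counting, and promoter windows from RefSeq. The alternatives were DESeq2 1.42.0, other scalings and filters, the 6 samples of a comparison alone, a block for the replicate number, each library left out, and the coding length. Lengths of the canonical transcript and of unshared bases were added after seeing the data. The 9 subunits were named in every comparison, as were the paralogues, the 2 genes with the smallest adjusted p below 0.05 in each other list, and the 5 genes most like the mean subunit profile. A result that this rule names is not reported here. The members and lists were chosen with earlier results of these data known.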

Additional observations from a re-analysis of the deposited data

How the results depend on the processing

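For the 9 subunits and 2 paralogues, no called fold change turned its direction under any alternative. Under another tool, scaling, filter, choice of samples or block, 224 values kept direction and side of the threshold, 5 lost a call, 1 gained one and 1 uncalled value turned, and with a library left out 272 kept both, 14 lost a call, 1 gained one and 10 uncalled values turned. These were ARPC3 between the viscosities (-0.0016 with upper-quartile scaling) and, with a library left out, ARPC1B (-0.074 to 0.0841) and ARPC5L (-0.0089 to 0.0524) between the lines, ACTR3 (-0.0626 to 0.0101) and ARPC5 (-0.0571 to 0.00083) between the shTRPV4 samples and baseline, and ACTR3C in the 3 comparisons (-0.18 to 0.19, -0.0673 to 0.15 and -0.12 to 0.25). The cause was not tested. With a library left out, 1 to 2 subunits passed between the viscosities, 1 between the lines and 2 to 4 between the shTRPV4 samples and baseline, where 2 remained without SC 0.77 cP replicate 2. Summed over the 3 comparisons, calls among the paralogues went from 2 to 1 with no filter. With a library left out they ran from 1 to 2. Those of the WASH complex (4 with all libraries) then ran from 1 to 4, and those of actin and its turnover (14 with all libraries) from 7 to 20. Calls among the 78 other regulators between the viscosities (16 with all libraries) ran from 4 to 22. Calls among all genes in that comparison ran from 1409 to 4349. The log2 ratio of ARPC1B to ARPC1A between the lines was -0.03 and ran from -0.11 to 0.0306 with a library left out, turning to 0.0306 without shTRPV4 replicate 1 and to 0.0189 without SC 8 cP replicate 1. Per kilobase of all exons ACTR2 stood above ACTR3 (83.7 against 37.2 CPM per kb), but their ratio was 0.774 over the coding length and 1.32 over the canonical transcript, a length chosen after seeing the data. That of ARPC5 to ARPC5L (31.9 against 25.7 over all exons) went to 3.54 over the coding length.

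With the replicate number as a block, the call of ARPC1A between the shTRPV4 samples and baseline was lost (adjusted p = 0.0541), no other subunit call changed, and the numbers of genes called were 3475, 3607 and 7731 in the 3 comparisons. Samples with the same number did not deviate together (r between -0.0546 and 0.0904 over 9 pairs), so the numbers were not taken to pair them.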
